A study of Mus musculus with 108 samples.

Results

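Promoter sites from which reporter fragments were recovered out of YFP-positive cells at every stage of blood cell differentiation numbered 8174 of 17863, or 45.8% of all promoter sites. They were chosen by the sorted libraries themselves. All promoter fragments listed for the 95 sorted libraries were merged into sites wherever they overlapped, and a site was kept when a YFP-positive fragment lay in it in 2 or more replicates of each of the 5 stages. A further 681 sites met that requirement but lay within 2 kb of a pair of divergent protein-coding gene starts and were left out. The 8174 sites are called members here, and the 9689 remaining sites, with those 681 among them, are called other promoter sites.

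The study cloned fragments of open chromatin, cut out by the transposase Tn5, in front of a minimal HSP68 promoter and a Venus-YFP gene. Constructs were targeted to Hprt in the mouse embryonic stem line HM-1, so that YFP reported the activity of the inserted fragment at 1 fixed place in the genome. Cells were sorted as ES (undifferentiated), HB (FLK1+ hemangioblast), HE1 (hemogenic endothelium, KIT+ TIE2+ CD41-), HE2 (the later hemogenic endothelium, CD41+ and still KIT+ TIE2+) and HP (blood progenitors, KIT+ CD41+ without TIE2). In replicates 1 to 4 the YFP gates of a stage were 4, called Negative, Low, Medium and High, and in replicate 5 Medium and High were joined. Every group therefore shares the 1 parental line and the Hprt integration, and the lists give each distinct fragment once per library, with no count of reads or cells behind it. A positive set below is the union of the Low, Medium and High lists of 1 stage and 1 replicate, which gives 25 positive sets beside 25 Negative lists.

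A promoter is the stretch of DNA around a transcription start where general factors and RNA polymerase II assemble. Most mouse genes with functions needed in every cell start within CpG islands, where GC boxes bound by Sp and Klf factors, CCAAT boxes bound by NF-Y and sites for ETS factors, NRF1 and YY1 recur. Genes restricted to a lineage more often rely on distal enhancers to bring their promoters into use. In the reporter a promoter fragment is moved away from its own gene and placed in front of another minimal promoter, so the readout is what that fragment does at Hprt and not the expression of its gene.

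The proximal sequences of the members recovered in the most positive sets show the kind of DNA concerned. Uvrag (an autophagy gene), Sik1 (a protein kinase), Lonp2 (a peroxisomal protease) and Fam199x were the 4 members positive in all 25 sets, and Tomm40 (a subunit of the mitochondrial import channel) and Pdhb (a subunit of pyruvate dehydrogenase) followed with 24. The sequences run from 120 bases before to 30 bases after the RefSeq start, on the strand of the gene, in build GRCm38.p6. Capitals mark matches, on either strand, to the 15 motifs searched. Sik1 had no entry.
Uvrag, chr7:99141115-99141264, minus strand: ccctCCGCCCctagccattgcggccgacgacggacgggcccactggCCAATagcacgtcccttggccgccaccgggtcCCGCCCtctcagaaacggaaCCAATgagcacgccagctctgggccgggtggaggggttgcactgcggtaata
Lonp2, chr8:86623923-86624072, plus strand: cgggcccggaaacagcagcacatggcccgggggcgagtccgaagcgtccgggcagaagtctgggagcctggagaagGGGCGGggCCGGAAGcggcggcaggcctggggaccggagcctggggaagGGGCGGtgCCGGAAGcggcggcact
Fam199x, chrX:137049474-137049623, plus strand: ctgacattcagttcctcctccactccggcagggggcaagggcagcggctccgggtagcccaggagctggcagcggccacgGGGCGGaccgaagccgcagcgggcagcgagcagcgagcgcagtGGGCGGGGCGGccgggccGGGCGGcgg
Tomm40, chr7:19715400-19715549, minus strand: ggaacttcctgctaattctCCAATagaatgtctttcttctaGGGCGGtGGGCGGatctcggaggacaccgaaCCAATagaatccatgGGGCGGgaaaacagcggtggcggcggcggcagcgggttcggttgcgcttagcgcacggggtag
Pdhb, chr14:8172963-8173112, minus strand: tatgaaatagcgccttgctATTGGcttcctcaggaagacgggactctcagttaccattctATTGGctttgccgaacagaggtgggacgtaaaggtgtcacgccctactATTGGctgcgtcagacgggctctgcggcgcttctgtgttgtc

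GC boxes and CCAAT boxes recurred among these 5 sequences. Fam199x and Lonp2 held GC boxes (GGGCGG) on both sides of the start, and in Lonp2 each GC box was followed within a few bases by an ETS motif (CCGGAAG). Pdhb held 3 CCAAT boxes and no GC box, while Uvrag and Tomm40 held both kinds. GC content of the 150 bases ran from 53.3% in Pdhb to 77.3% in Fam199x.

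These sites were recovered often, but how often depended on the replicate. At Uvrag, which spans chr7:99140708-99141875, replicates 1 to 5 gave 18, 26, 4, 3 and 1 distinct positive fragments in ES. The same site gave 28, 32, 6, 1 and 2 in HB, then 62, 47, 2, 3 and 1 in HE1. It gave 55, 29, 8, 2 and 1 in HE2 and 44, 21, 1, 1 and 1 in HP. Replicates 1 and 2 were the high ones at every stage and replicates 3 to 5 were low, without overlap between them. Negative lists held Uvrag fragments too, with 6, 12, 2, 0 and 0 in ES and 9, 8, 0, 1 and 0 in HP. Sik1, at chr17:31855457-31856367, had 112 distinct positive fragments and 38 distinct Negative fragments, and lay in 21 of the 25 Negative lists. Tomm40, at chr7:19715182-19716353, had 308 distinct positive fragments and missed only ES replicate 5.

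The same split ran through all the members, and the lists differed widely in size. Promoter fragments per library had a median of 39666.5 in replicate 1 and 27839.5 in replicate 2, against 1430.5, 1249 and 741 in replicates 3, 4 and 5, over a full range of 353 to 86113. Between 98.3% and 99.95% of the members were positive in each set of replicates 1 and 2. In replicates 3 to 5 the share ranged from 9.40% in HE2 replicate 5 to 83.1% in HB replicate 3. Of the 8174 members, 7612 (93.1%) were positive at every stage in replicates 1 and 2 alone. Asking for 3 replicates of every stage in place of 2 left 1696 sites, and leaving out replicate 1 or replicate 2 left 1703 or 1737. The choice of members thus rests on 2 replicates, and its part in what they share was not tested.

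**Figure D1:**
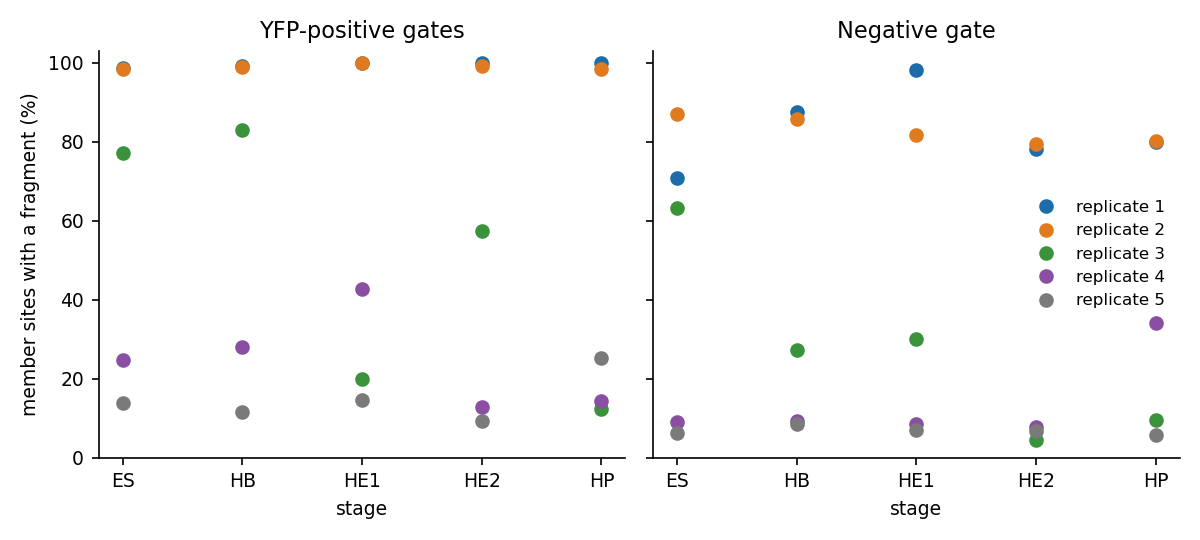
Percent of the 8174 members with at least 1 fragment, by stage and replicate (5 points per stage, 1 per replicate), in the YFP-positive gates (left) and in the Negative gate (right). Replicates 1 and 2 hold at least 98.3% of the members in the positive gates at every stage. In the Negative gate the shares run from 4.47% (HE2 replicate 3) to 98.2% (HE1 replicate 1).

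At the threshold itself, 6478 members were positive in exactly 2 replicates at their weakest stage. Their median was 46 distinct positive fragments in 13 positive sets. The 1917 sites just outside, which had 1 positive replicate at their weakest stage and no divergent starts, had a median of 17 fragments in 10 sets. At the other end, 144 members reached 4 replicates at every stage and 4 reached all 5. Over all members the number of positive sets ran from 10 to 25 with a median of 14, and distinct positive fragments ran from 5 to 489 with a median of 54.

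Few single fragments lay behind that recurrence. Of 546800 distinct positive fragments in the members, 66.0% were listed in 1 positive set and 2.27% in 5 or more. The exceptions were a small number of fragments that came back again and again. One 397 bp fragment at the Fam199x start was listed in all 25 positive sets and in 19 Negative libraries, and it accounted for every positive set in which Fam199x had only 1 fragment. A 131 bp fragment at Mios, which encodes a regulator of the mTORC1 pathway, was in 23 positive sets and 18 Negative libraries. Their levels in the plasmids differed widely. The Fam199x fragment had 3 reads over the 5 pSKB targeting plasmid lists, that of Mios had 37, and a 197 bp Lonp2 fragment found in 21 positive sets had 271. The Fam199x, Mios, Tssc4 and 1810013L24Rik fragments, each among the 10 most recurrent, were also present in 1 of the 3 lists made by the same PCR from parental HM-1 cells. Of all 781666 distinct promoter fragments in the sorted lists, 23, 2342 and 216 were in the 3 HM-1 lists. By the authors' methods, fragments had been filtered against such controls. The part of that PCR background in the recurrence was not tested.

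The sequences of the only 2 among the 10 most recurrent fragments that lay wholly upstream of their start and over no annotated exon are given because each was recovered as 1 identical piece from many sorts. The Rimbp2 fragment, 146 to 241 bp upstream of the start, was in 22 positive sets and 16 Negative libraries and matched none of the motifs searched. The Hmgn1 fragment, 80 to 179 bp upstream of the start of this gene for a nucleosome-binding protein, was in 18 positive sets and 16 Negative libraries and held 1 GC box, in capitals. Both are read from the GRCm38.p6 assembly on the strand of the gene.
Rimbp2, chr5:128953508-128953603, minus strand: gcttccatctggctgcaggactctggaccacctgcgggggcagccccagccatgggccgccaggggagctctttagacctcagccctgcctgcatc
Hmgn1, chr16:96127809-96127908, minus strand: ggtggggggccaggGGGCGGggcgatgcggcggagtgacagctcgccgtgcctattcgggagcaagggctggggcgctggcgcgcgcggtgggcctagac

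Whether a site became a member moved with how well it was represented in the targeting plasmids. The rule did not use the number of plasmid fragments. However, pSKB fragments were counted within site borders that the sorted fragments drew, and member sites were wider (median 919 bp against 513 bp). The counts were not scaled by width, and the part of width in them was not tested. By their methods, the authors kept only sorted fragments found in the plasmids, which would build presence there into membership. In the deposited lists, 79.1% of distinct promoter fragments matched a pSKB or pDONR fragment exactly. The pSKB plasmids carry the fragments into the cells, and 1 list was sequenced per stage, with 1302941 to 1952358 fragments each. Members held a median of 199 distinct pSKB fragments summed over the 5 lists (13 to 1346), against 39 in other promoter sites. Among sites without divergent starts, none of the 1763 in the lowest of 10 groups ranked by pSKB fragments was a member. The share rose to 45.4% in the fifth group, with 73 to 104 fragments, and to 95.3% in the highest, with 343 or more. All but 5 members (8169) had a fragment in each of the 5 pSKB lists, against 73.2% of other promoter sites. Across the 8174 members, distinct positive fragments followed pSKB fragments (Spearman's rho 0.91) and distinct Negative fragments (rho 0.95). These points share libraries and site width, so the correlations are descriptions.

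**Figure D2:**
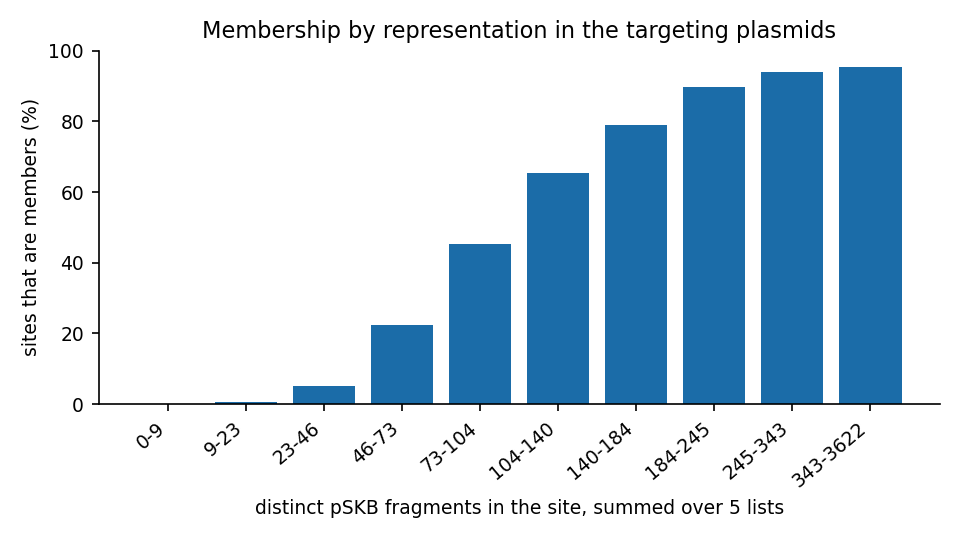
Percent of promoter sites without divergent starts that are members (bars, from 0), in 10 groups of sites ranked by distinct pSKB fragments summed over 5 lists (range under each bar). The share rises in every step, from 0% in the lowest group to 95.3% in the highest. Fragment counts are not scaled by site width.

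Members took up 69.7% to 73.8% of the promoter-site fragments in the pSKB lists and 69.5% to 73.4% in the pDONR lists, the entry plasmids cloned before them. In the sorted libraries they took up 79.2% of listed promoter fragments. That higher share is partly built in, since sites were kept for being present in the sorted libraries. It was found in Negative cells as well: per 100 pSKB fragments, members gave 28.6 distinct positive and 11.4 distinct Negative fragments, and other promoter sites gave 21.7 and 8.33. Positive fragments made up 74.9% of positive plus Negative fragments in members and 74.9% in other promoter sites, with each fragment counted once per stage and replicate. A positive set joins the Low, Medium and High lists, while the Negative side is the Negative list alone. More positive than Negative fragments are therefore partly built in, and 74.9% is not the share of fragments that were active.

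Most members were listed in Negative cells as well. A total of 6859 members (83.9%) also had a fragment in a Negative list of every stage, and 3894 (47.6%) had one in the Negative lists of 2 or more replicates of every stage, which is the rule applied to the Negative gate. Among other promoter sites these shares were 13.3% and 5.22%. No Negative fragment at all was found for 2 members, against 2338 other promoter sites. Of the 546800 distinct positive fragments in members, 157707 (28.8%) were themselves in a Negative list of some stage and replicate. Sites that replicates 1 and 2 alone would choose (7612) were then read in replicates 3 to 5. That reading is not independent, since site borders came from all 95 libraries and some lists of replicate 5 share many fragments with lists of replicates 1 and 2. They held 73.8% to 79.5% of positive promoter fragments over the 15 sets (median 76.2%) and 74.2% to 81.8% of Negative ones (median 76.9%), and the positive share was the higher in 7 of the 15.

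The brightness of the cells was compared next. The rule used the High, Medium and Low lists joined, without regard to gate, so each High and Low library also helped to choose the sites on which it is scored here, and the comparison is not independent of the choice. The question was whether fragments of the members were more common in High than in Low cells. The joined Medium/High library stood for High in replicate 5. In ES, High libraries had 79.8%, 79.9%, 78.6%, 78.2% and 81.9% of their promoter fragments in members in replicates 1 to 5, and Low libraries had 79.7%, 79.9%, 79.7%, 79.0% and 81.2%. The groups overlapped throughout. The means were 79.7% ± 1.46 in High and 79.9% ± 0.79 in Low (SD, n = 5), a difference of -0.22 percentage points (exact two-sided permutation test, adjusted p = 0.82 over the 5 stages). In HB the Low share was the higher in 5 of 5 replicates, but by 0.83 points on average, with 79.9% ± 1.90 in High and 80.8% ± 1.74 in Low (SD, n = 5, exact permutation test, adjusted p = 0.82). The largest difference was in HE2, with 80.1% ± 2.10 in High and 78.7% ± 1.21 in Low (SD, n = 5), higher in High in 3 of 5 replicates (exact permutation test, adjusted p = 0.82). HE1 differed by -0.25 points and HP by 0.27 points (exact permutation test, adjusted p = 0.82 for each). Without replicate 4, whose HE2 High list held 379 promoter fragments, the HE2 difference was 0.31 points and that of HE1 was -0.87. Per all listed fragments, distal ones included, High minus Low was -3.36 points in ES and -3.29 in HB, then -1.83 for HE1, 1.19 for HE2 and -1.62 for HP (exact permutation test, lowest adjusted p = 0.40). No stage differed beyond the spread between replicates. The smallest p this exact test of 5 against 5 can give is 0.00794, and the test ignores any pairing by replicate number. Since the scored lists also chose the sites, these p-values describe the spread between replicates and test nothing independent of the choice.

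**Figure D3:**
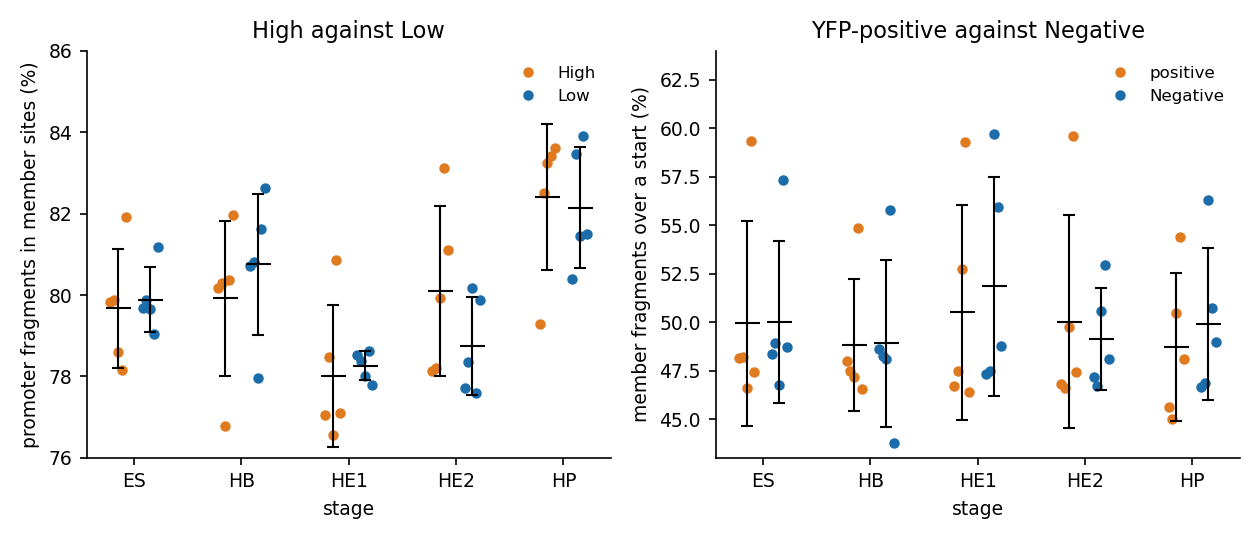
Left: percent of promoter fragments that lie in members, in High and in Low libraries. Right: percent of member fragments that cover a protein-coding start, in positive and in Negative cells. Points are the 5 replicates, and black marks and bars are the mean and SD. Both axes start above 0. High and Low overlap at every stage, and replicate 4 lies highest among the positive cells in the right panel, between 54.4% and 59.6%.

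No member passed the threshold between gates when every promoter site was tested on its own. limma was run on log2 of distinct fragments per 10000 listed fragments plus 1, over sites that 4 or more of the compared libraries listed. High against Low called 0% of 7764 sites in ES, 0% of 7689 in HB, 0% of 8279 in HE1, 0% of 7483 in HE2 and 0% of 5353 in HP (Benjamini-Hochberg adjusted p under 0.05). The members among them numbered 6282, 6252, 6442, 5982 and 4616, and 37, 28, 15, 1 and 12 of those had an unadjusted p under 0.05, which is 0.589%, 0.448%, 0.233%, 0.0167% and 0.260% of the members tested. Over all sites tested the shares were 0.721%, 0.468%, 0.254%, 0.0134% and 0.299%. The median log2 difference of the members between High and Low lay between -0.10 in HE1 and 0.07 in HB, and the median of all sites tested was within 0.01 of it at each stage. The rule asked for no fragment in Negative libraries, but their fragments helped to draw the site borders. Negative libraries of successive stages were also compared with limma, with the question whether the pool of integrated member fragments itself shifted. ES against HB, HB against HE1, HE1 against HE2 and HE2 against HP called 0% of 7450, 7833, 6964 and 6074 sites, with 36, 24, 6 and 15 members at an unadjusted p under 0.05. These are 0.579%, 0.377%, 0.107% and 0.292% of the members tested, against 1.02%, 0.626%, 0.158% and 0.395% of all sites tested. About 5% of sites would have an unadjusted p under 0.05 if none differed and the test kept its level. Every share here was lower, so the fits were conservative. An absence of calls does not show that the gates or stages were alike.

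How the High and Low fragments of each member divided can still be described, with a fragment counted once in each library that lists it. Over all members 59.7% of High plus Low fragments were High, and over all other promoter sites 60.2%. Among the 6984 members with 30 or more such fragments, the High share had a median of 59.7% and quartiles of 55.6% and 64.1%. The deviations from the common share were 1.12 times as wide as counting error alone would make them, with every listing treated as independent. The extremes were picked for their values and carry no test. The share pools stages and replicates whose High and Low lists differ in size, with up to 64218 High and 23591 Low fragments in HP and up to 39616 and 53672 in HE2, and members differ in the stages their fragments come from. The part of list size in the order was not tested. Uchl1, which encodes a neuronal ubiquitin hydrolase, had the highest share with 34 High and 4 Low fragments (89.5%, exact 95% binomial interval 75.2% to 97.1%). Uchl1 had 25 distinct positive fragments, Medium ones included, and 1 of them lay in 7 of its 12 positive sets. Its High lists gave 7, 2, 0, 0 and 1 fragments in HE1 replicates 1 to 5 and 7, 3, 0, 0 and 0 in HP, and its Low lists gave 1, 1, 0, 0 and 0 and then 2, 0, 0, 0 and 0. Kbtbd6 (88.9%) and Galnt9 (87.2%), a glycosyltransferase gene, followed. At the other end were Vcan, which encodes the matrix proteoglycan versican, with 12 High and 25 Low fragments (32.4%), Pdf, a peptide deformylase gene, with 11 and 22, and Lin9, a subunit gene of the DREAM cell cycle complex, with 14 and 28. At Lin9, 9 of the 28 Low fragments came from 1 library, HE1 Low replicate 4, which is 1 of 8 libraries that share fragments across replicates. The interval given covers counting error only. It treats repeated listings of a fragment as independent, so it is likely too narrow.

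The 8 libraries are those in pairs that shared over 50% of the smaller list. Over 3600 pairs of libraries of different replicates, the shared fragments made up a median of 2.71% of the smaller list, but 5 pairs shared over 50%. HE1 Negative replicate 3 and HE1 Low replicate 4 shared 83.7%, and HE1 Negative replicate 1 and HE1 Medium replicate 2 shared 78.3%. HE1 Low replicate 4 further shared 65.9% with HP Negative replicate 3 and 51.5% with HE2 Negative replicate 3. HE1 Medium/High replicate 5 and HP Medium replicate 1 shared 53.2%. Sharing did not stop at that level: the next pairs shared 41.2% (HB Low replicate 2 and HE2 Medium/High replicate 5), 36.2% (HB High replicate 1 and HE2 Negative replicate 5) and 36.0% (ES Medium replicate 4 and HE2 Negative replicate 3). Without the 8 libraries 7786 sites met the rule. Without the 4 of the first 2 pairs 7844 did.

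Where the fragments lie around the start was the next question. Of the members, 7454 (91.2%) held a protein-coding transcript start and 4311 (52.7%) held 2 or more. In all, 7988 lay within 1500 bp of one, 148 had only a noncoding start that near, and 38 had none. Member sites were 919 bp wide in the median (212 to 2592 bp) and other promoter sites 513 bp, of which 51.1% held a start. Width grew with the number of fragments merged. The median centre of member fragments relative to the nearest start was -33.5 bp in Negative cells and -36.5 bp in High cells, with negative values upstream. Coverage peaked at -30 bp in every gate, where 39.7% to 40.5% of distinct fragments covered the position.

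**Figure D4:**
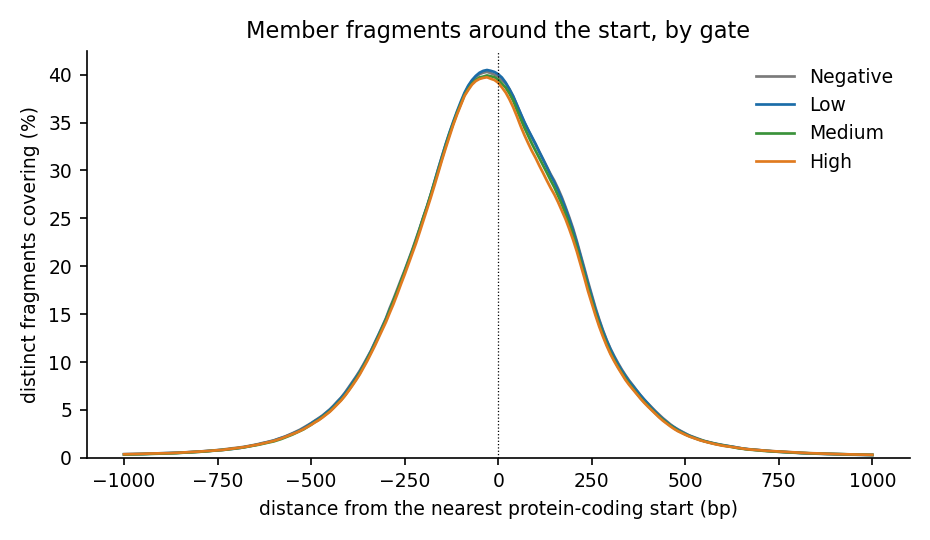
Percent of distinct member fragments that cover each position (10 bp steps) from 1000 bp upstream to 1000 bp downstream of the nearest protein-coding start, by gate, all stages and replicates joined. The 4 curves nearly coincide and peak 30 bp upstream of the start, between 39.7% in High and 40.5% in Low.

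The share of fragments over a start did not differ between positive and Negative cells beyond the spread between replicates. In ES the positive sets had 48.2%, 48.2%, 46.6%, 59.3% and 47.4% of their member fragments over any annotated protein-coding start in replicates 1 to 5. The Negative lists had 48.3%, 48.9%, 46.7%, 57.4% and 48.7%. Replicate 4 was high in both, and the other 4 replicates lay close together. The means were 49.9% ± 5.29 and 50.0% ± 4.19 (SD, n = 5, exact permutation test, adjusted p = 0.98). HP had 48.7% ± 3.83 in positive and 49.9% ± 3.93 in Negative cells (SD, n = 5, exact permutation test, adjusted p = 0.98), and HB, HE1 and HE2 likewise passed no threshold at an adjusted p of 0.98. In each stage the positive value was below the Negative one in 4 of 5 replicates, with replicate 5 the exception in HB and replicate 4 in the others. The exact permutation test ignores any pairing by replicate number. Its spread takes in shifts common to both groups, such as that of replicate 4 in ES. High against Low gave differences between -2.74 points in HE1 and 0.61 points in HE2, and the lowest adjusted p was 0.78 in the exact permutation test. High was below Low in 5 of 5 replicates in HB and HE1 and in 4 of 5 in ES and HP. In ES the difference went from -2.27 to -0.36 points without replicate 4.

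Fragment length gave no difference past the threshold either. In ES, member fragments had a median length of 216 ± 13.5 bp in positive cells and of 215 ± 12.1 bp in Negative cells (SD, n = 5, exact permutation test, adjusted p = 0.92). In HB the positive median was the shorter in 5 of 5 replicates, with 210, 204, 207, 227 and 194 bp against 214, 214, 210, 235.5 and 207.5 bp, a mean difference of -7.8 bp (exact permutation test, adjusted p = 0.83). With the replicate number as a block the exact p was 0.0625, the smallest that test can give, and the adjusted p was 0.31. The difference was wider in HP, with 205 ± 15.7 bp and 230.5 ± 61.3 bp, but it came from 1 list (exact permutation test, adjusted p = 0.83). HP Negative replicates 1 to 5 had medians of 200, 201, 336, 231 and 184.5 bp. The 336 bp list is HP Negative replicate 3, which is among the 8 libraries that share fragments, and without those 8 the HP difference was -0.73 bp in place of -25.9 bp. Positive fragments of members and of other promoter sites had near-equal median lengths, with 216 ± 13.5 and 215 ± 10.3 bp in ES and 205 ± 15.7 and 205 ± 13.9 bp in HP (SD, n = 5, exact permutation test, adjusted p = 0.92 in both). Both values come from the same libraries, and this test ignores that pairing. Members had the longer median in 0 of 5 replicates in HE1, 1 of 5 in HB and HP, and 2 of 5 in ES and HE2. Mean differences lay between -2.3 bp in HB and 1.2 bp in HE2.

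The genes at the members were read against lists of genes, by count alone and with no test. Of 14654 protein-coding genes with any promoter site within 1500 bp, 8239 (56.2%) were at a member. The list of AP-1 and immediate early genes stood highest: 14 of 15 with a site were at a member (93.3%). Among them were Jun, Junb, Jund, Fos, Fosb, Fosl1, Fosl2, Atf3, Maff and Egr1, and the exception was Mafg. Cytosolic ribosomal protein genes followed with 62 of 80 (77.5%), translation factors with 48 of 63 (76.2%), replication and cell cycle genes with 20 of 28 (71.4%) and chromatin regulators with 17 of 25 (68.0%). Proteasome subunits (25 of 37), ubiquitous promoter factors such as Sp2 (15 of 23), splicing factors (19 of 31) and chaperonins and heat shock proteins (15 of 25) lay between 60% and 67.6%. Mitochondrial ribosomal proteins (44 of 78), NADH dehydrogenase subunits (20 of 36) and genes of RNA polymerase II and Mediator (22 of 41) were near the share of all genes. In those 3 lists 18, 8 and 7 further genes lay at sites left out for divergent starts.

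The lists of genes that mark the stages had smaller shares than all genes, and each had some genes at members. Of pluripotency genes with a site, 7 of 18 (38.9%) were at a member: Klf2, Klf4, Klf5, Tbx3, Sall4, Lin28a and Dnmt3b. Pou5f1, Sox2, Esrrb and Zfp42 had a promoter site that was not a member. Of mesoderm and hemangioblast genes 6 of 15 were, namely Kdr, Etv2, Mesp1, Mixl1, Pdgfra and Tbx6, where Kdr encodes FLK1, the receptor by which HB cells were sorted. Of endothelial genes 8 of 21 (38.1%) were, with Tek, Flt1, Erg, Ets1 and Notch1 among them, and Pecam1 and Cdh5 not. Of blood genes 10 of 22 (45.5%) were, including Runx1, Tal1, Lmo2, Myb, Klf1, Nfe2 and Kit, while Gata1, Gata2 and Spi1 were not. Plasmid representation differed between the lists. The genes with a site had a median of 152 pSKB fragments over all genes and 231 in the AP-1 list, against 93 in the pluripotency and 88 in the endothelial list. The blood list had 153.5, close to all genes. Chaperonins and heat shock proteins had the highest median, 331, with 60% at members, ubiquitous promoter factors had 295 with 65.2%, and ribosomal proteins had 175 with 77.5%. Within most lists, genes at members had more pSKB fragments than genes with another site only. The medians were 207 against 57 over all genes, 163 against 36 in pluripotency, 298 against 83 in endothelium and 214.5 against 63 in blood. Only ubiquitous promoter factors (286 against 373) and the AP-1 list (225.5 against 378, from 1 gene) went the other way. The part of plasmid representation in the shares was not tested.

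**Figure D5:**
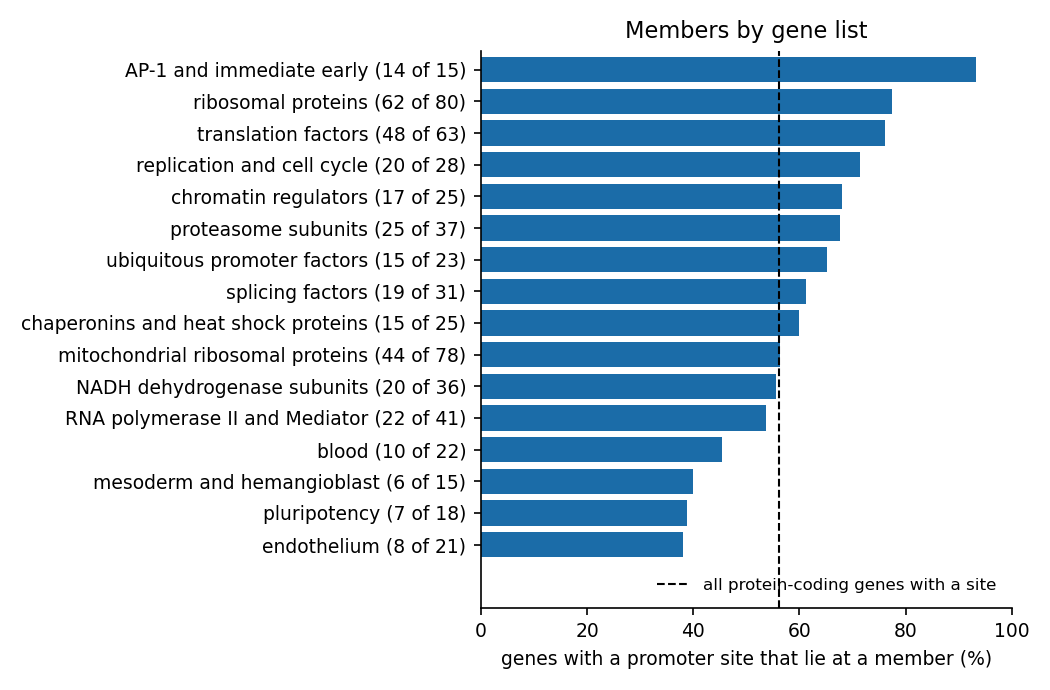
Percent of genes with a promoter site that lie at a member (bars, from 0), by gene list, with the counts in brackets, and the 56.2% of all protein-coding genes with a site (dashed line). AP-1 and immediate early genes lie highest at 93.3%, and the pluripotency, mesoderm, endothelium and blood lists lie between 38.1% and 45.5%.

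Lineage promoters among the members are described next. That each was recovered at every stage is set by the rule and is no finding, so the values show only how many fragments each stage and replicate gave. At Runx1, which encodes a transcription factor needed for blood cells to arise from endothelium, ES replicates 1 to 5 gave 6, 8, 3, 0 and 0 positive fragments, HE1 gave 13, 14, 0, 1 and 0, and HP gave 7, 1, 0, 0 and 0. The ES Negative lists gave 5, 4, 0, 0 and 0. At Nfe2, an erythroid and megakaryocyte factor, ES gave 15, 13, 3, 0 and 0 and HP gave 14, 4, 1, 2 and 1. Kdr gave 5, 6, 0, 0 and 0 in ES and 5, 5, 4, 0 and 0 in HB, the stage sorted for its product. In the other direction, Klf5, a factor of pluripotent cells, gave 7, 11, 4, 2 and 0 in ES and 17, 10, 0, 0 and 1 in HP, and Lin28a, which encodes an RNA-binding protein of the same cells, gave 5, 6, 1, 0 and 0 in ES and 4, 2, 0, 0 and 0 in HP. In each of these examples replicates 1 and 2 gave most fragments, and ES and the later stages overlapped.

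The most often recovered members of other lists had larger numbers. At Eif4a1, which encodes a helicase of translation initiation, ES gave 38, 36, 12, 4 and 1 positive fragments and HP gave 58, 15, 1, 1 and 2, with 22 positive sets and 18 Negative lists. Jund gave 32, 22, 1, 6 and 0 in ES and 25, 9, 1, 1 and 1 in HP. Med21 (22 positive sets), Sf3b2 and Sp2 (21 each), Mcm7, Psmd8 and Rnf2 (20 each) and Ndufb2 (18) headed their lists.

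Member promoters were GC-rich. A RefSeq promoter sequence, from 250 bases before to 50 after the start, was available for 6125 members, in 7703 sequences. They had a median GC content of 63.3% and 23 CpG dinucleotides, against 60.7% and 19 for starts in other promoter sites and 48.0% and 4 for starts in no promoter site. The other promoter sites take in all 961 sites with divergent starts, of which 681 were positive at every stage by the same rule. The part of divergent starts in the contrasts below was not tested. GC boxes (GGGCGG, either strand) were in 73.2% of member promoters, 62.2% of promoters in other sites and 35.6% of all 32817 reference promoters. ETS motifs (CCGGAAG) were in 19.1%, 15.2% and 8.86%, NRF1 motifs (GCATGCGC) in 6.08%, 4.16% and 2.71%, and YY1 motifs (AAGATGGCG) in 3.14%, 2.54% and 1.40%. CRE motifs (TGACGTCA) were in 3.74%, 2.99% and 1.79%, and E-boxes (CACGTG) in 11.2%, 9.42% and 7.15%. CCAAT was in 39.6%, 34.1% and 37.4%. The order turned round for the TATA box (TATAAA), in 5.04% of member promoters, 7.03% of those in other sites and 13.6% of all, and for the GATA motif (AGATAA), in 4.39%, 6.55% and 11.2%. The AP-1 motif (TGANTCA) was in 3.70%, 5.57% and 7.81%, the TEAD motif (GGAATG) in 10.5%, 12.1% and 14.7%, and the SOX motif (CATTGT) in 6.01%, 6.74% and 12.6%. RUNX (TGTGGTT, 3.22%, 3.07% and 5.27%), OCT (ATGCAAAT, 1.39%, 1.29% and 1.74%) and the TCT initiator (CTCTTTCC, 2.66%, 3.05% and 3.12%) differed little between members and other sites.

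Among sites of like plasmid representation the order of GC content turned round. In sites with 73 to 140 pSKB fragments, where both kinds are common, member promoters had a median GC content of 60.3% and other promoters 62.7%, and GC boxes were in 66.2% and 65.8%. CCAAT remained the more common in members there, at 35.7% against 28.1%, while TATAAA was in 7.67% and 6.25%. The other promoters here include those of sites with divergent starts, which the rule keeps out of the members. Their part in these differences was not tested. These are descriptions over 1604 and 1184 promoters, and a motif match is not a binding site.

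By chromosome, members made up between 41.8% and 49.4% of the promoter sites on each autosome and 38.0% (217 of 571) on X. The median number of pSKB fragments per site was 58 on X and 92 to 143 on the autosomes.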

How the data were processed

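Per the labels and the study's methods, the authors trimmed reads with Trim Galore, aligned them to mm10 with Bowtie2, kept fragments found in the plasmids and in ATAC-seq peaks, filtered them against HM-1 PCR controls, and divided them into promoter and distal lists. The deposited sorted lists hold positions only. The deposited plasmid and HM-1 lists add read counts per fragment, without molecular identifiers, so intervals cover counting error only. Sorted starts are 1-based: 79.1% of 781666 distinct promoter fragments matched a plasmid fragment with 1 added to its start and 4.18% without. The sources used here do not state the read depth of each sorted library.

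Members and gene lists were chosen with earlier results of these data known. Starts came from GENCODE M21. Percentages and lengths per replicate were compared with exact two-sided permutation tests (252 regroupings), adjusted by Benjamini-Hochberg over 5 stages. limma 3.58.1 in R 4.3.3 (lmFit, eBayes with trend) tested all promoter sites, and the code was tested on simulated data. A "positive set" pools the gates of a replicate. Replicates are those of the labels, which do not say whether they were separate differentiations, so p-values measure the spread between these samples. Alternatives were the replicate threshold, merging, divergence rule, log offset, filter, scale, gate pooling, a replicate block, left-out replicates and left-out libraries.

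Genes were named by a rule: the 10 members in most positive sets, members past a limma threshold (none), the 5 of each list of stage genes and the first of each other list by positive sets, and the 3 highest and 3 lowest High shares. Some genes that the rule names are not reported here. Lists were also read gene by gene, and recurrent fragments were named after their values were seen. Same-numbered sets of a stage deviated together with correlations from -0.04 to 0.44 over sites, all above 0.1 for positive and Negative in ES and HB and for High and Low in HP, and not in the other comparisons.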

Additional observations from a re-analysis of the deposited data

Results flagged for a closer look

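Among the 50 groups of 5 replicate values examined, 16 values lay far from the other 4 of their group, where chance flags about 1 in 20 groups. The groups are not separate, since the positive lengths and the lengths in members are the same values, and ES replicate 4 (240 bp) and HE1 replicate 4 (325 bp) are each counted under both. Most were of replicate 4. For the percent of member fragments over a start these were ES positive (59.3%), ES Negative (57.4%), HB positive (54.9%), HE2 positive (59.6%), ES High (54.8%), ES Low (64.7%) and HE2 High (67.0%), all replicate 4 and all the highest of their group. For the median length of member fragments they were ES positive replicate 4 (240 bp), HB Negative replicate 4 (235.5 bp), HE1 positive replicate 4 (325 bp) and HE1 Negative replicate 3 (345 bp). Other promoter sites had the same long fragments, with 233 bp in ES replicate 4 and 327 bp in HE1 replicate 4, beside 240 bp and 325 bp in members. Replicate 4 lists had a median of 1249 promoter fragments. HE1 Low replicate 4 and HE1 Negative replicate 3 are among the libraries that share fragments, with median lengths of 332 and 344 bp against 182 to 277 bp in those outside the 8 libraries. The remaining value was the percent of promoter fragments in members in HP High replicate 1 (79.3%), the lowest of its group. The part of depth and of shared fragments in these values was not tested.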

How the results depend on the processing

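The number of members fell from 8174 to 1696 with 3 or more replicates of each stage, and ranged from 1703 to 8100 with 1 replicate left out (1703 without replicate 1, 1737 without replicate 2). It was 7820, 8081 and 8100 without replicates 3, 4 and 5. The cause was not tested. Under the other alternatives it stayed within 1.5 times of 8174. None of the 25 tests over replicates passed the threshold in any of 237 values, of which 25 with a replicate block could not (lowest adjusted p in an exact test 0.156), and none of 91 limma fits called a site. Values with 1 replicate left out could pass only if several stages reached the smallest p of that test together. Their lack of calls says little about stability. The limma fits as reported were conservative, so their lack of calls says little either. With a replicate block the lowest exact p of the 25 tests was 0.0625, the smallest that the sign-flip test can give, and the lowest adjusted p was 0.156. Same-numbered sets deviated together with correlations from -0.04 to 0.44, with every pair above 0.1 for positive and Negative in ES and HB and for High and Low in HP, where the numbers may pair the samples. Since the block over 5 pairs cannot reach 0.05, its lack of calls says nothing about stability. In those comparisons its lowest exact p was 0.0625, for positive minus Negative length in HB (-7.8 bp). Differences are the same with it by construction, such as -25.9 bp for positive minus Negative length in HP.

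Small differences changed sign without passing the threshold, and the cause was not tested. High minus Low in the percent of promoter fragments in members became -1.62 points in HP per all listed fragments, where ES went to -3.36, HB to -3.29 and HE1 to -1.83 with no change of sign, and in HE1 0.0448 with Medium joined to High and 0.0661 without the 8 sharing libraries, an alternative chosen after seeing the data. Positive minus Negative over a start became 0.55 in ES and 0.15 in HB with gene starts only, 0.59 in ES, 2.00 in HB and 1.15 in HE1 for fragments of 150 to 250 bp, and 1.09 in HE1 and 0.32 in HP without the 8 libraries. High minus Low over a start became 0.0727 in HB and -0.20 in HE2 for fragments of 150 to 250 bp, and 0.65 in HE1 without the 8 libraries. Mean in place of median length gave -0.00444 bp in ES for positive minus Negative and -0.75 bp for members minus others, and positive minus Negative length in HE2 was 6.75 bp without the 8 libraries.

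With 1 replicate left out, High minus Low in members ranged from -0.45 to 0.000969 in ES, -0.87 to 0.0582 in HE1, 0.31 to 1.75 in HE2 and -0.19 to 0.62 in HP. Positive minus Negative over a start ranged from -0.59 to 0.23 in ES, -0.81 to 0.13 in HB, -2.50 to 0.0818 in HE1 and -0.51 to 1.36 in HE2, and High minus Low over a start from -1.56 to 3.02 in HE2. Positive minus Negative length ranged from -2 to 3.5 bp in ES, -33 to 15.9 bp in HE1 and -19.1 to 5.75 bp in HE2, and members minus others from -0.75 to 1.75 bp in ES, -0.75 to 2 bp in HE2 and -2.13 to 0.13 bp in HP. Replicates 3 to 5 had median lists of 1430.5, 1249 and 741 promoter fragments for 17863 sites.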
